A study of Homo sapiens with 4 samples.

Results

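Integrins are cell-surface receptors made of an alpha and a beta chain that bind the extracellular matrix or other cells. Laminins are secreted trimers of an alpha, a beta and a gamma chain that form the basement membrane, and several integrins bind them. The 37 genes examined here were fixed by name, as 26 integrin chains and 11 laminin chains of 20098 protein-coding genes on chromosomes 1 to 22 and X. BRG1 is an ATPase of the SWI/SNF chromatin remodeling complex, and its helicase/SANT-associated (HSA) domain is a contact surface for other subunits. Peaks of 2 inducible V5-tagged proteins, the wild type (iBRG1) and a mutant that lacks the HSA domain (i∆HSA), were located at these genes, to ask whether the domain affects where BRG1 is found.

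The data came from CUT&RUN, in which an antibody, here against V5, brings a nuclease to a chromatin protein and the released DNA is sequenced. Both groups were SW-13 adrenocortical carcinoma cells, which do not express BRG1 or its relative BRM, and each construct was carried by 1 clone and induced with doxycycline for 24 h. There were 2 samples per construct but 1 peak list for each, with 24212 iBRG1 and 25371 i∆HSA peaks. The methods name a minimum score of 5, but the lists hold lower scores, and 6575 and 10440 of their peaks reach 5. Values per replicate and the depth reached were therefore unknown, and no difference between the constructs could be tested. Intervals below cover counting error only, and peaks of the same gene are not independent of each other.

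A peak was assigned to a gene when it overlapped the gene body or the 5 kb on either side by at least 1 bp. The windows of the 37 genes did not overlap each other. They held 46 iBRG1 and 44 i∆HSA peaks, and 29 of the 37 genes had at least 1 peak in either list (78.4%, 95% Wilson interval 62.8 to 88.6), where all protein-coding genes gave 63.3% and genes of like length, defined next, 78.9%. Long genes hold more peaks, and the integrin and laminin genes were long, with a median of 81.7 kb (range 12.0 to 633.4) against 27.3 kb over all protein-coding genes. Each gene was therefore set beside 200 protein-coding genes of like length, the 100 next shorter and the 100 next longer ones. Genes of like length gave a mean total of 48.4 iBRG1 and 50.1 i∆HSA peaks, so the ratio was 0.951 for iBRG1 (95% Poisson interval of the count, 0.697 to 1.27) and 0.878 for i∆HSA (0.638 to 1.18). Both intervals include equal numbers.

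An iBRG1 peak was present at 17 of 37 genes (45.9%, 95% Wilson interval 31.0 to 61.6). Over all protein-coding genes the share was 44.1%, and genes of like length gave 60.8%. An i∆HSA peak was present at 23 of 37 genes (62.2%, interval 46.1 to 75.9), against 49.2% of all genes and 63.7% at like length. Both lists had a peak at 11 genes (29.7%), where all genes gave 30.0% and genes of like length 45.6%. An overlapping pair, meaning an iBRG1 and an i∆HSA peak that shared at least 1 bp within the window, was present at 6 genes (16.2%), against 16.1% of all genes and 22.5% at like length. The Wilson intervals were 17.5 to 45.8 for both lists and 7.65 to 31.1 for pairs, and in each of these 4 counts the values of all genes and of genes of like length lay inside the interval.

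**Figure D1:**
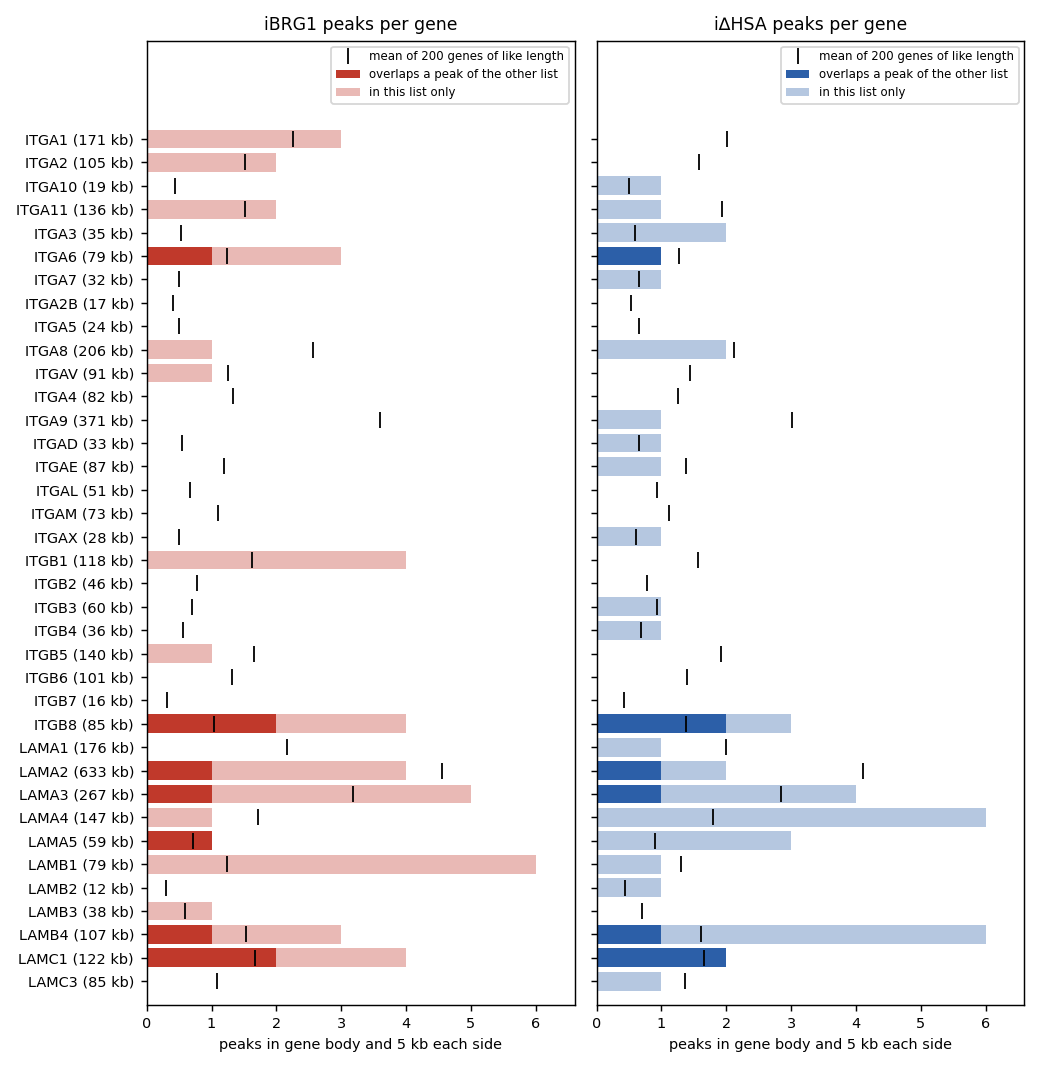
Number of peaks in each of the 37 genes (horizontal axis, peaks in the gene body and 5 kb each side) for iBRG1 (left, red) and i∆HSA (right, blue), with gene lengths beside the names. Full colour marks peaks that overlap a peak of the other list anywhere, pale colour marks the others, and the tick gives the mean of the 200 genes of like length; LAMB1 reaches 6 iBRG1 peaks and LAMB4 and LAMA4 reach 6 i∆HSA peaks.

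The ratio of peaks to those of genes of like length was higher for the laminin than for the integrin genes in both lists. A peak of either list was at 11 of 11 laminin genes (Wilson interval 74.1% to 100%), against 83.1% at like length, and at 18 of 26 integrin genes (69.2%, interval 50.0 to 83.5), against 77.1%, so both families were within counting error of genes of like length. The laminin windows held 25 iBRG1 peaks where genes of like length held 18.7 (ratio 1.33, Poisson interval 0.863 to 1.97), and 27 i∆HSA peaks where they also held 18.7 (ratio 1.44, interval 0.949 to 2.10). The integrin windows held 21 iBRG1 peaks against 29.6 (ratio 0.709, interval 0.439 to 1.08) and 17 i∆HSA peaks against 31.4 (ratio 0.542, interval 0.316 to 0.868). Of these 4 intervals, that of the i∆HSA peaks at integrin genes excludes equal numbers. The difference between the families was not tested. Within the laminins, the beta chains had 10 iBRG1 peaks against 3.66 (ratio 2.73, interval 1.31 to 5.03). They had 8 i∆HSA peaks against 4.07 (interval of the ratio 0.850 to 3.88). LAMB1 held 6 of these iBRG1 peaks and 1 of the i∆HSA peaks, and LAMB4 held 3 and 6. These genes lie close together (chr7:107564244-107643658 and chr7:107663993-107770806). The high count may therefore belong to a single locus, which was not tested, and the beta chains were among several chain groups compared. The alpha chains had 11 iBRG1 peaks against 12.3 and 16 i∆HSA peaks against 11.6.

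The sites held by both constructs with the highest score ranks were in laminin genes. There were 8 overlapping pairs in all, at LAMB4, LAMA3, LAMC1 (2 pairs), LAMA2, ITGB8 (2 pairs) and ITGA6. In the 5 laminin pairs both peaks had a score of at least 10, and in the 3 integrin pairs the i∆HSA peak scored 2 or 3. The score is the authors' whole number for each peak. Its scale is not stated and differs between the lists, so equal scores of the 2 lists need not have equal rank. For some peaks the percent of peaks of the same list that scored lower is also given.

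LAMB4 encodes a laminin beta chain. Its iBRG1 peak at chr7:107670136-107671520 scored 43, above 99.6% of that list, and was the highest-scoring iBRG1 peak among the 37 genes. The i∆HSA peak at chr7:107670292-107672141 scored 29, above 95.1% of its list. Their 1229 bp in common lay in intron 32 of the canonical transcript by the peak midpoints, near the end of the gene. LAMB4 also had 2 iBRG1 and 5 i∆HSA peaks that did not overlap, with scores from 1 to 6 and from 2 to 3.

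LAMA3, the alpha chain of the laminin that anchors epithelia to the basement membrane, had its pair in intron 2. The iBRG1 peak (chr18:21296253-21300207) scored 12 and the i∆HSA peak (chr18:21296594-21300803) scored 35, above 91.7% and 96.1% of their lists, and 3614 bp were common to both. The other LAMA3 peaks scored 1, 2, 4 and 10 for iBRG1 and 2, 2 and 3 for i∆HSA. LAMC1, the gamma chain of most laminins, had both of its pairs in intron 1. At one, 37.4 kb from the start site by the iBRG1 midpoint, both peaks scored 17 (chr1:183029176-183030743 for iBRG1 and chr1:183029344-183030141 for i∆HSA). These scores were above 95.4% of the iBRG1 list and 90.4% of the i∆HSA list. At the other, 7.47 kb from the start site, iBRG1 scored 10 (chr1:182997956-183002090) and i∆HSA scored 21 (chr1:182998717-183000085). These were all of the i∆HSA peaks of LAMC1, while iBRG1 had 2 more in intron 1, with scores of 3 and 7.

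LAMA2, the alpha chain of muscle laminin, is the longest of these genes, and its pair lay 607 kb from the start site in intron 56, at the start of another coding transcript of the gene. The iBRG1 peak (chr6:129809351-129813249) and the i∆HSA peak (chr6:129811118-129812801) both scored 11, above 90.5% and 84.3% of their lists. The remaining LAMA2 peaks, 3 of iBRG1 and 1 of i∆HSA, scored from 1 to 4.

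The 200 bp at the middle of the common stretch of the 5 highest-ranked pairs are shown. Pairs were ranked by the mean of the score percentiles of their peaks in their own lists. They were read from the GRCh37 reference on the plus strand, and capitals mark AP-1 (TGACTCA or TGAGTCA) and TEAD (GGAATG or its reverse complement) letters on either strand.

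LAMB4, chr7:107670806-107671005, intron 32: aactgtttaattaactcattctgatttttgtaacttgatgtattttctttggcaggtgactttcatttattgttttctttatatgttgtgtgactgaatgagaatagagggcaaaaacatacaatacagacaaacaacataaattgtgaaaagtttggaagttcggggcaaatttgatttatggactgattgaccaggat
LAMA3, chr18:21298301-21298500, intron 2: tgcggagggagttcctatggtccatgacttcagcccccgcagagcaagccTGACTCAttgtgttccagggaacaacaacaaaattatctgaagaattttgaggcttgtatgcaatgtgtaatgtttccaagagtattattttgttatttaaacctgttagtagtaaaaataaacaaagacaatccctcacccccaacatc
LAMC1, chr1:183029643-183029842, intron 1: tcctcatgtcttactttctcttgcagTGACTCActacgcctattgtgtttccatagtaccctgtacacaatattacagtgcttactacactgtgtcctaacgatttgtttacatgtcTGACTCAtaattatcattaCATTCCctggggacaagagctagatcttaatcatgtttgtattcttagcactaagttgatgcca
LAMC1, chr1:182999301-182999500, intron 1: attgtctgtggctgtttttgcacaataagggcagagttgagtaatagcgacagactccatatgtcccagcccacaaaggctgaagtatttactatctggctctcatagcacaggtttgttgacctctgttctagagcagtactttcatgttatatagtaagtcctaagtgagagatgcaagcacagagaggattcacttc
LAMA2, chr6:129811860-129812059, intron 56: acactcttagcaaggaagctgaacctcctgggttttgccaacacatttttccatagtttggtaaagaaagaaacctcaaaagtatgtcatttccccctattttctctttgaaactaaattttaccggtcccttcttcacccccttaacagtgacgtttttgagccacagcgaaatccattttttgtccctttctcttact

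AP-1 is a dimeric factor of the FOS and JUN families, and TEAD factors are the DNA-binding partners of YAP. AP-1 letters were within these 200 bp in the LAMA3 site (1 match) and in the LAMC1 site 37.4 kb from the start (2 matches, beside 1 TEAD match). The other 3 held neither pattern nor the SP/KLF letters GGGCGG. Over the whole common stretches, 5 of the 8 pairs held AP-1 letters, with 6 matches in LAMA3, 2 in LAMC1 and 1 each in LAMB4, LAMA2 and ITGB8. That was 11 matches in 10.2 kb, or 1.08 per kb, and all 4979 pairs of the lists gave 0.624 per kb, with at least 1 match in 54.6% of pairs. No interval was computed for this rate, and LAMA3 alone held 6 of the 11 matches. TEAD letters were in the common stretches of LAMB4 (1 match), LAMC1 (1) and ITGB8 (2 and 1), and SP/KLF letters were in none. All pairs gave 0.725 TEAD and 0.553 SP/KLF matches per kb, in 56.2% and 24.7% of pairs. A match is a description of the letters and not of a bound site.

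The integrin pairs scored low in the i∆HSA list. ITGB8, a beta chain that pairs with the alpha V chain, had pairs in introns 6 and 9. At the former iBRG1 scored 13 (chr7:20422098-20425264) and i∆HSA scored 2 (chr7:20424921-20425323), and at the latter they scored 6 (chr7:20437641-20439894) and 2 (chr7:20438975-20439739). The common stretch was 344 bp at the former and 765 bp at the latter, and the other iBRG1 peaks, both in intron 1, scored 5 and 1. ITGA6, an alpha chain of laminin receptors, had its pair in intron 11, with 431 bp in common, where iBRG1 scored 4 (chr2:173345377-173346261) and i∆HSA scored 3 (chr2:173345831-173346870). ITGA6 also had iBRG1 peaks in intron 1 with scores of 3 and 7.

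**Figure D2:**
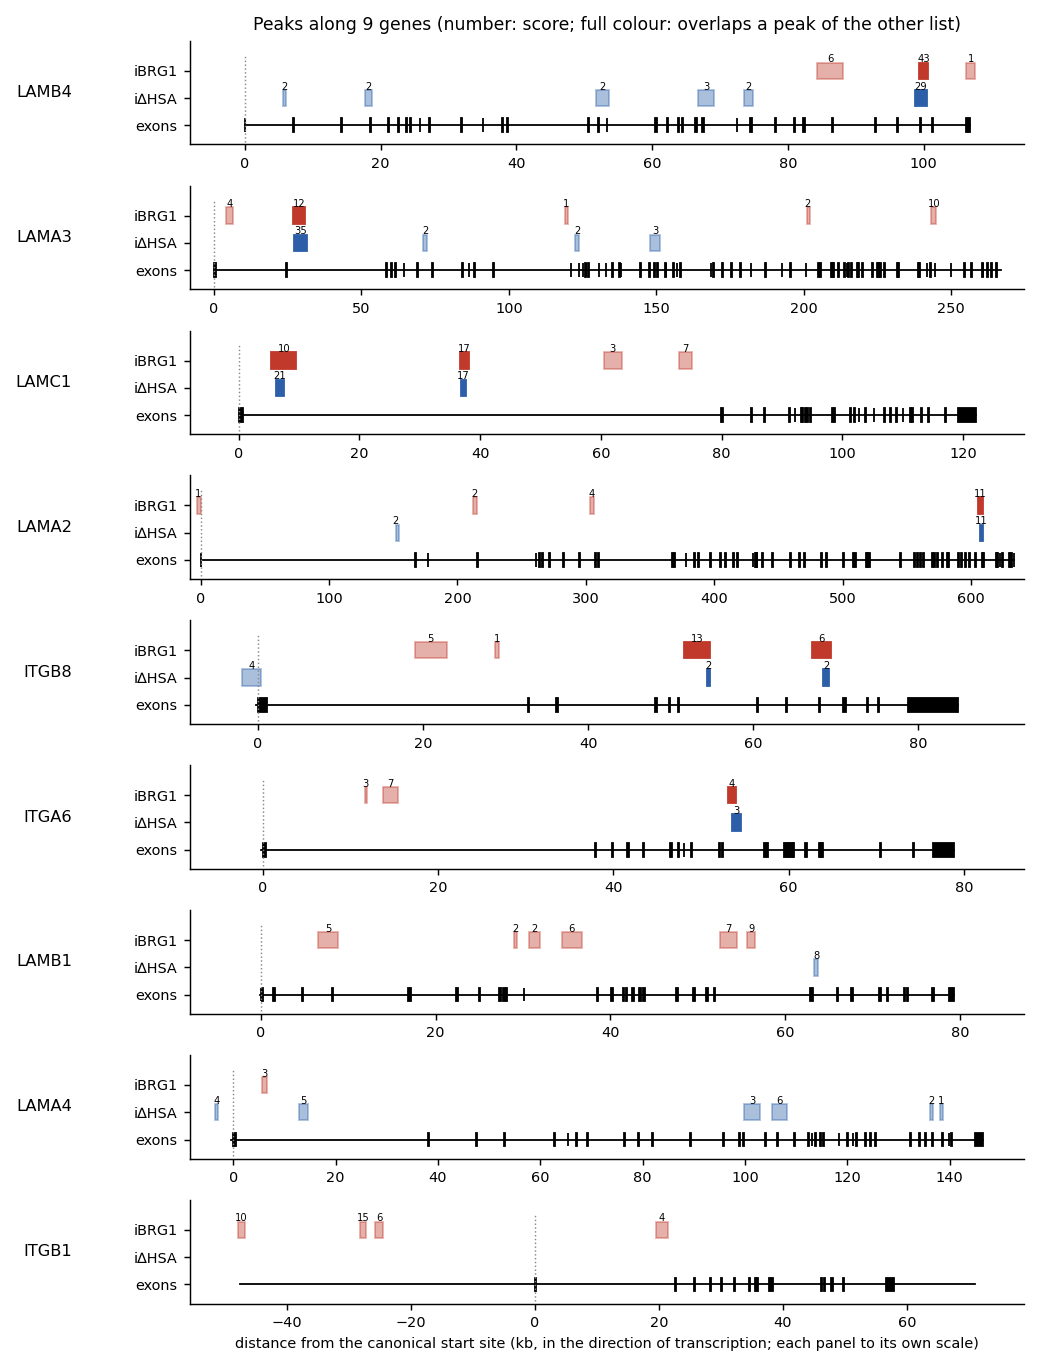
Peaks of iBRG1 (red) and i∆HSA (blue) along the 6 genes with an overlapping pair and along LAMB1, LAMA4 and ITGB1, drawn over the exons of the canonical transcript. The horizontal axis is the distance from the canonical start site in kb, numbers are scores and full colour marks peaks that overlap a peak of the other list; the ITGB1 annotation extends upstream of its canonical start, where 3 of its 4 iBRG1 peaks lie.

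Other genes had peaks of both constructs at different places, or mostly of one. LAMB1, a beta chain found in many basement membranes, had 6 iBRG1 peaks with scores of 9, 7, 6, 5, 2 and 2 and 1 i∆HSA peak with a score of 8 (chr7:107579805-107580342), at the start of a non-coding LAMB1 transcript. All 7 lay in introns of the canonical transcript by their midpoints, and the nearest peaks of the lists were 6723 bp apart. Genes of like length had a mean of 1.25 iBRG1 peaks, and 0.5% of them had 6 or more. LAMA4, an alpha chain of vessel walls, showed the opposite balance, with 1 iBRG1 peak (score 3) and 6 i∆HSA peaks (scores 1 to 6), where genes of like length had a mean of 1.795 i∆HSA peaks and 1% had 6 or more. The i∆HSA count of LAMB4 was also 6, reached by 1% of genes of like length. These were the most extreme of 74 gene-by-list comparisons, of which 2 iBRG1 counts (LAMB1 and ITGB8) and 2 i∆HSA counts (LAMA4 and LAMB4) were reached by under 5% of genes of like length. By its definition this rule is met by up to about 5% of genes of any kind, so any set of this size could hold a few. The share of all genes that meet it was not computed. LAMA5, a laminin alpha chain found widely in adult tissues, had 3 i∆HSA peaks with scores of 2 to 3 and GC contents up to 63.9%. Its 1 iBRG1 peak (chr20:60877010-60880233, score 11) lay in the downstream flank at the start of the neighbouring gene ADRM1, and the i∆HSA peak that overlapped it was outside the window.

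The remaining laminin genes each had 1 peak in 1 list. LAMB3, the beta chain that assembles with LAMA3, had an iBRG1 peak in exon 14 (score 3). LAMA1, an alpha chain of early basement membranes, had an i∆HSA peak in intron 19 (score 7). LAMC3, a gamma chain, had one in intron 1 (score 2). LAMB2, the beta chain of kidney and neuromuscular basement membranes, had one at its start site (score 2), and it is the shortest of the 37 genes.

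**Figure D3:**
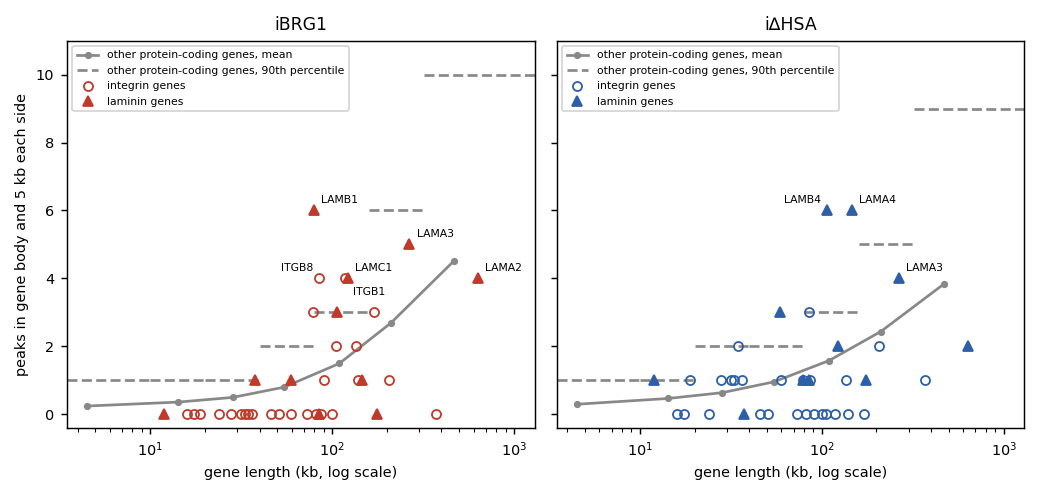
Peaks per gene against gene length (kb, log scale) for iBRG1 (left) and i∆HSA (right), with integrin genes as open circles and laminin genes as filled triangles. The grey line joins the mean and dashes give the 90th percentile of the other protein-coding genes in 7 length classes. For iBRG1, 5 genes lie above the dashes of their class (LAMB1, ITGB1, ITGB8, LAMC1 and ITGA6). For i∆HSA, 3 genes do (LAMA4, LAMB4 and LAMA5). By definition some genes of any kind can lie above a 90th percentile, and the share of all genes that do was not computed. ITGB1 (4 iBRG1 peaks), LAMC1 (4) and ITGA6 (3) only equal the 90th percentile of their genes of like length. LAMB1, ITGB8 and the i∆HSA genes exceed it.

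Among the integrin beta chains, ITGB1, the common partner of most matrix-binding alpha chains, had 4 iBRG1 peaks and 0 i∆HSA peaks. The iBRG1 scores were 15 (chr10:33274357-33275337), 10 (chr10:33293964-33294972), 6 and 4. The peak with a score of 10 lay at the start of a non-coding ITGB1 transcript, at an offset of -47.3 kb from the canonical start. Of genes of like length, 11.5% had 4 or more iBRG1 peaks, with a mean of 1.62, and the mean of i∆HSA peaks was 1.57. ITGB8 had 4 iBRG1 peaks, a number reached by 4% of genes of like length, and 3 i∆HSA peaks. ITGB5, another alpha V partner, had 1 iBRG1 peak in intron 1 (chr3:124597475-124598218, score 6) at the start of another coding transcript. ITGB3, the beta chain of the platelet and osteoclast receptors, had 1 i∆HSA peak in its downstream flank (score 13), and ITGB4, the hemidesmosome beta chain, had 1 in intron 26 (score 7). ITGB2 (leukocytes), ITGB6 (epithelia) and ITGB7 (lymphocytes) had 0 peaks in both lists.

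The collagen-binding alpha chains ITGA1, ITGA2, ITGA10 and ITGA11 held 7 iBRG1 and 2 i∆HSA peaks, against 5.71 and 6.03 at like length. The intervals of the ratio were 0.49 to 2.52 and 0.0402 to 1.20, and both include equal numbers. ITGA1 had 3 iBRG1 peaks, of which the highest (chr5:52159652-52161239, score 17) ranked above 95.4% of its list and lay 76.7 kb into the gene, at the start of a non-coding ITGA1 transcript. Its other scores were 7 and 1. ITGA2 had 2 iBRG1 peaks with scores of 0 and 3. ITGA11 had iBRG1 peaks with scores of 12 and 2 and an i∆HSA peak with a score of 10 and a GC content of 17.6%, and the closest peaks of the lists were 41056 bp apart. ITGA10 had 1 i∆HSA peak over the end of the gene (score 11).

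The laminin-binding alpha chains other than ITGA6 had i∆HSA peaks only. ITGA3 had 2, and the one at chr17:48162863-48164631 scored 85, above 99.1% of the list, and was the highest-scoring i∆HSA peak among the 37 genes. No iBRG1 peak overlapped it. It lay in intron 23, 30.3 kb from the canonical start, at the start of a non-coding ITGA3 transcript. The other covered the canonical start (chr17:48132822-48134689, score 2). ITGA7 had 1 in the upstream flank (score 2), at the start of the neighbouring gene RDH5.

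The middle 200 bp of the ITGA1 peak, the highest-scoring iBRG1 peak at an annotated start of these genes, are shown from the same reference and strand. They held no AP-1, TEAD or SP/KLF letters, and so nothing is in capitals.

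ITGA1, chr5:52160346-52160545, iBRG1 peak: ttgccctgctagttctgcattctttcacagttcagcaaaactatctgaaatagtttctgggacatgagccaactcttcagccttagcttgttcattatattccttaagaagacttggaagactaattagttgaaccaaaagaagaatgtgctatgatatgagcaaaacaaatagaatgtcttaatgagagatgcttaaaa

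The alpha chains that recognise fibronectin, vitronectin and related ligands held 2 iBRG1 peaks against 4.725 at like length (interval of the ratio 0.0513 to 1.53) and 2 i∆HSA peaks against 4.76 (0.0509 to 1.52), and both intervals include equal numbers. ITGAV had 1 iBRG1 peak (intron 17, score 2). ITGA8 had 1 iBRG1 peak (score 2) and 2 i∆HSA peaks (scores 2 and 7), and the GC content of the latter was 16.6%. ITGA5, the main fibronectin receptor chain, and ITGA2B, the platelet chain, had 0 in both lists. ITGA4 had 0, and ITGA9, at 371.4 kb the longest of the integrin genes, had 0 iBRG1 peaks where genes of like length had a mean of 3.6, and 1 i∆HSA peak just past its end (score 2). Together ITGA4 and ITGA9 held 0 iBRG1 peaks against 4.925 at like length (interval of the ratio 0 to 0.749). Their 1 i∆HSA peak compared with 4.275 (0.00592 to 1.30). The leukocyte alpha chains ITGAD, ITGAE, ITGAL, ITGAM and ITGAX had 0 iBRG1 peaks, against 4 at like length (0 to 0.922). Both of these iBRG1 intervals exclude equal numbers, but the groups were among several chain groups compared. The leukocyte chains had 3 i∆HSA peaks, against 4.71 (0.131 to 1.86). These were at ITGAE (chr17:3640858-3641803, score 6, at the start of a non-coding transcript), ITGAD (score 6) and ITGAX (score 5), the last 2 in the downstream flank, and the ITGAD one was at the start of COX6A2. Of all peaks at the 37 genes, 3 iBRG1 and 4 i∆HSA peaks overlapped the body of another protein-coding gene. Some of these reached into the integrin or laminin gene, such as the ITGA11 iBRG1 peak with a score of 2, which overlapped FEM1B. Peaks in a flank or over another gene may belong to that neighbouring gene, which was not tested.

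Few of these peaks were at the main start of a gene. An iBRG1 peak came within 1 kb of any annotated start of the gene at 6 of 37 genes (16.2%), against 18.2% of all protein-coding genes and 22.6% at like length, and an i∆HSA peak at 10 (27.0%), against 20.9% and 25.0%. None of these iBRG1 peaks, and the i∆HSA peaks of 3 of the 10 genes, came within 1 kb of the canonical start. At the canonical start, iBRG1 had a peak at 0 of 37 genes (Wilson interval 0% to 9.41%), where all genes gave 11.8% and genes of like length 12.3%. The i∆HSA list had one at 3 of 37 (8.11%, interval 2.80 to 21.3), where all genes gave 14.4% and genes of like length 14.8%. These were ITGA3, ITGB8 (chr7:20368629-20370859, score 4) and LAMB2 (chr3:49170125-49173078, score 2). At the canonical start, the values of both backgrounds were above the interval for iBRG1 and inside it for i∆HSA. The canonical-start rule was chosen after seeing the data. For any annotated start, the intervals were 7.65 to 31.1 (iBRG1) and 15.4 to 43.0 (i∆HSA), and both backgrounds lay inside them.

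Apart from those given above, the iBRG1 peaks at other annotated starts were at ITGB1 (chr10:33225760-33227563, score 4), LAMA2 (chr6:129416465-129419140, score 2), LAMB4 (chr7:107682650-107686476, score 6) and LAMC1 (chr1:183065467-183067688, score 7). For i∆HSA they were at LAMA3 (chr18:21417375-21420763, score 3), LAMA4 (chr6:112472747-112475850, score 3), LAMA5 (chr20:60895097-60895405 and chr20:60925121-60926251, score 2 each) and LAMB4 (chr7:107701660-107704083, score 3).

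By midpoint, 37 of the 46 iBRG1 peaks (80.4%, interval 66.8 to 89.3) lay in an intron of the canonical transcript, against 66.0% of peaks over all protein-coding windows and 72.8% in genes of like length. For i∆HSA these were 34 of 44 (77.3%, interval 63.0 to 87.2), 61.5% and 69.8%. Intron 1 held 12 iBRG1 peaks (26.1%, interval 15.6 to 40.3, against 22.9% at like length) and 6 i∆HSA peaks (13.6%, interval 6.4 to 26.7, against 19.4%). All 4 shares were thus within counting error of genes of like length. A stricter rule counts a peak as intronic only if it touches no annotated exon and no start of the gene. By this rule 27 iBRG1 peaks were intronic (58.7%, interval 44.3 to 71.7), against 54.7% over all windows and 61.7% at like length. For i∆HSA it was 18 (40.9%, interval 27.7 to 55.6), against 51.2% and 59.8%, and the like-length value was above the interval. The shares in introns therefore depend on the rule. By midpoint both lists were above all windows, and within counting error of genes of like length. By the stricter rule both lists were within counting error of all windows, and only i∆HSA was below genes of like length.

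The scores of the iBRG1 peaks were high for their list. The median was 5 (range 0 to 43), against 3 for all peaks in protein-coding windows, and 24 of 46 peaks (52.2%, interval 38.1 to 65.9) scored at least 5, against 29.4% over all windows and 29.75% in genes of like length. These 24 peaks compared with 14.4 in genes of like length (ratio 1.67, Poisson interval 1.07 to 2.48). LAMB1 held 4 of them and ITGB1, ITGB8 and LAMC1 held 3 each, and 11 were spread over 8 other genes. The i∆HSA peaks had a median of 3 (range 1 to 85) against 4, and 18 of 44 (40.9%, interval 27.7 to 55.6) scored at least 5, against 42.3% over all windows. Their ratio to genes of like length at this score was 0.837 (interval 0.496 to 1.32). Both comparisons of scores of at least 5 with genes of like length were chosen after seeing the data.

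**Figure D4:**
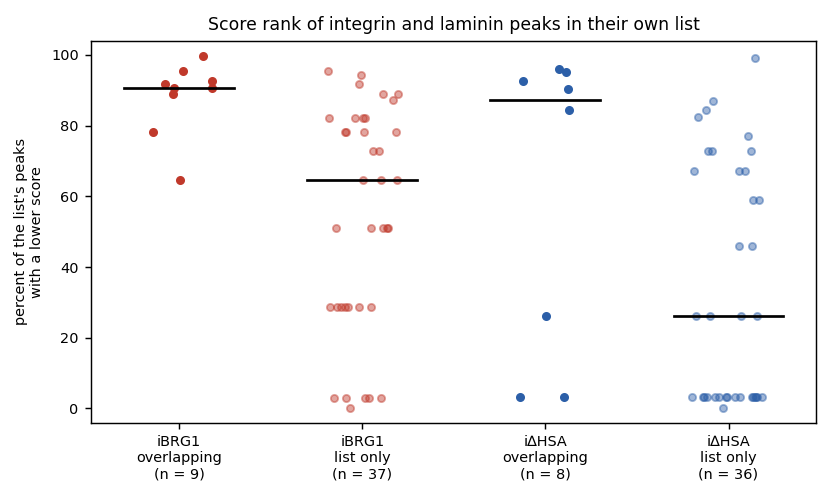
Score rank of each peak at the 37 genes, as the percent of peaks of its own list that scored lower (vertical axis), for peaks that overlap a peak of the other list and peaks that do not. Bars are medians, at 90.5 and 64.6 for iBRG1 and 87.3 and 26.0 for i∆HSA, and horizontal scatter within a column has no meaning.

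Of the iBRG1 peaks at these genes, 9 of 46 (19.6%, interval 10.7 to 33.2) overlapped an i∆HSA peak, against 22.4% of peaks in protein-coding windows. Of the i∆HSA peaks, 8 of 44 (18.2%, interval 9.51 to 32.0) overlapped an iBRG1 peak, against 21.6%. Overlapping peaks had a median score of 11 in the iBRG1 list and 14 in the i∆HSA list, and the others had medians of 4 and 3. Overlapping peaks also scored higher over all windows, with medians of 5 and 8, where the others had 2 and 3. With scores of at least 10, 7 of 12 iBRG1 peaks overlapped (58.3%, interval 31.9 to 80.7) and all windows gave 58.6%. With scores of 5 to 9, 1 of 12 did (8.33%, interval 1.49 to 35.4), where all windows gave 31.7%. For i∆HSA, 5 of 9 peaks with scores of at least 10 overlapped (55.6%, interval 26.7 to 81.1) and all windows gave 53.8%, and with scores of 5 to 9 it was 0 of 9 (interval 0% to 29.9%) against 26.5%. The overlap of the lists at these genes was within counting error of that over all windows in each of these groups.

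The peaks were similar in width and base composition to those over all windows. The median peak width was 1578 bp for iBRG1 (all windows 1418) and 1286 bp for i∆HSA (all windows 1381), and the median GC content was 39.1% and 39.8% (all windows 39.1% and 39.3%). In the 200 bp at the peak midpoint, AP-1 letters were in 7 of 46 iBRG1 peaks (15.2%, interval 7.57 to 28.2), against 8.84% of all iBRG1 peaks, and in 5 of 44 i∆HSA peaks (11.4%, interval 4.95 to 24.0), against 6.15%. TEAD letters were in 4 and 5 peaks (8.70% and 11.4%), against 12.1% and 10.1%, and SP/KLF letters in 1 and 2 (2.17% and 4.55%), against 4.62% and 5.47%. The lists' shares lay inside the intervals for each of the 3 patterns. The iBRG1 peaks with AP-1 letters at the midpoint were in ITGA11, ITGA6, ITGB1, ITGB5, LAMA3, LAMB1 and LAMC1, 1 in each gene.

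Genes of integrin adhesion sites, of other basement membrane components and of other laminin receptors were examined as a list of 32 partner genes. Of these, 18 had an iBRG1 peak (56.2%, all genes 44.1%), 23 had an i∆HSA peak (71.9%, all genes 49.2%), 8 had an overlapping pair (25%, all genes 16.1%) and 6 had no peak. These shares are not corrected for gene length. The pairs were at VCL (vinculin), FERMT2 (kindlin-2), ILK (integrin-linked kinase), LIMS1, PXN (paxillin), PTK2 (focal adhesion kinase), ACTN4 (an alpha-actinin) and KANK1, a regulator of adhesion sites. KANK1 had 9 peaks in each list and VCL had 7 in each, and TLN2 (a talin) had 8 iBRG1 and 5 i∆HSA peaks without an overlap. Among the basement membrane components and laminin receptors, NID1 (nidogen), AGRN (agrin) and DAG1 (dystroglycan) had 3 i∆HSA peaks each and 0 iBRG1 peaks. HSPG2 (perlecan) had 1 iBRG1 and 2 i∆HSA peaks, and NID2 and BCAM had 0.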

How the data were processed

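CUT&RUN was performed on 300000 cells per sample, with nuclease digestion for 30 min. Per the study's methods and the submitters' processing notes, reads were trimmed with Cutadapt, aligned with Bowtie2 to hg19, de-duplicated with Picard, and peaks were called with MACS2 2.2 and filtered against negative controls and by a minimum score. The deposited values are the start, end and a score of each peak, made by the authors as 1 list per construct. How the replicates were combined into 1 list, and the scale of the score, are not given in the sources used here. Both lists hold scores below 5, the minimum that the methods name. Such filters decide which sites can appear in a list. Peaks of control libraries were not used here.

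Groups were taken from sample titles. No peak ended beyond a GRCh37 (hg19) chromosome. Genes were the protein-coding genes of GENCODE release 44 mapped to GRCh37, and positions are 1-based. Place was assigned by any overlap in the order promoter (1 kb on each side of any transcript start of the gene), exon, intron and flank. The canonical transcript is the one tagged as such by GENCODE, and intron and exon numbers refer to the peak midpoint in it. Shares carry 95% Wilson intervals and counts exact 95% Poisson intervals. No test was run, because there is no replicate value. The integrin, laminin and partner genes, the 3 motif patterns and the rule for named loci (every gene with its number of peaks; positions for overlapping pairs, peaks at annotated starts and the 5 highest-scoring peaks of each list) were chosen with earlier results of these data known. Some other positions are given beside these. The overlap and place rules were tested on simulated data. Python 3.11.15, numpy 2.4.6, scipy 1.17.1, pysam 0.24.0 and matplotlib 3.10.9 were used. The alternatives tried are given in the closing section. The sequence of 1 peak is not reported here.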

Additional observations from a re-analysis of the deposited data

How the results depend on the processing

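No paired analysis was possible because only a single list, with no values by replicate, stands for each construct. No replicate could be left out for the same reason. Of 92 values recomputed under 12 alternatives, 79 stayed within the counting interval or within 1.5 times the count given in the report, and 13 moved. With a score of at least 5, the genes held 24 iBRG1 and 18 i∆HSA peaks, both lists had a peak at 6 genes, an i∆HSA peak was at an annotated start of 4 genes, and the iBRG1 ratio to genes of like length rose to 1.67. By construction this setting keeps fewer peaks, and the last 3 of these values were chosen after seeing the data, as were the like-length ratios and the counts of genes with both lists, a pair or a peak at a start under the other windows and the GC minimum. At this score the overlapping pairs left were in LAMA2, LAMA3, LAMB4 and LAMC1. With a reciprocal overlap of 50%, 6.52% of iBRG1 and 6.82% of i∆HSA peaks overlapped and 3 genes had a pair, since the rule is stricter. With starts of protein-coding transcripts only, 8.70% of iBRG1 peaks were at a start. With the canonical start only, an alternative chosen after seeing the data, 0% of iBRG1 peaks (0 genes) and 6.82% of i∆HSA peaks (3 genes) were at the start. No depth per library is known, so whether sequencing limits the lists could not be examined.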
